A study of Caenorhabditis elegans with 2 samples.

Results

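The CDC-48 family was described at the level of 10 genes: the paralogues cdc-48.1 and cdc-48.2 and the cofactor genes ufd-1, npl-4.1, npl-4.2, ufd-2, ufd-3, ubxn-1, ubxn-2 and ubxn-3, out of 19973 protein-coding genes on the nuclear chromosomes of Caenorhabditis elegans. The 10 were chosen by gene name and family, at a time when the signal, rank and position of the regions at these genes in the same lists were already known. Those values are therefore descriptions and were not tested. The data are chromatin immunoprecipitation and sequencing of GMEB-1, a SAND-domain DNA-binding protein related to the mammalian glucocorticoid modulatory element binding proteins, tagged with eGFP. The material was whole L2 larvae of pooled males and females, of strain OP343, with the genotype unc-119(ed3) III; wgIs343, where wgIs343 is the transgene insertion that carries tagged gmeb-1. The labels give 1 group with 2 biological replicates, and a control library that is not analysed here. The labels do not say in which cell types the transgene is active, and regions from whole larvae cannot be assigned to a tissue.

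CDC-48, called p97 or VCP in mammals, is a ring-shaped AAA ATPase that pulls ubiquitinated proteins out of membranes, complexes and chromatin. Its cofactors decide which substrate it meets. The UFD-1 and NPL-4 heterodimer and the UBX-domain proteins bring substrates to the ring, while UFD-2 lengthens ubiquitin chains and UFD-3, related to mammalian PLAA, binds ubiquitin and CDC-48. In the worm the complex is known for degradation of misfolded endoplasmic reticulum proteins and for taking the replicative helicase off DNA. Both CDC-48 proteins are known to act redundantly. Here their conceptual translations, of 809 residues in CDC-48.1 and 810 in CDC-48.2, were 88.1% identical over 817 alignment columns, gaps included.

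The windows below reach 50 bp to either side of 5 of the 6 promoter summits, the base of highest signal in each region, and let the summits of the paralogues and cofactors be compared as sequence. They lie at chrII:10563528-10563628 for cdc-48.1 (minus strand), chrII:8137520-8137620 for cdc-48.2 (plus), chrII:9940579-9940679 for ufd-3 (plus), chrIV:2725946-2726046 for ubxn-2 (minus) and chrII:221329-221429 for ubxn-3 (minus). The window of the remaining promoter summit, at ubxn-1, was counted in the searches for words but is not shown. The last sequence, at chrII:216717-216817 (minus), is from the strong summit between ubxn-3 and its neighbour F48A11.4, and is not among the 6 promoter windows counted. All were read from the RefSeq genome of WBcel235, the same build as ce11, 5' to 3' on the strand of the gene. Capitals mark matches, on either strand, to 7 short words that are named with their counts further on.
cdc-48.1: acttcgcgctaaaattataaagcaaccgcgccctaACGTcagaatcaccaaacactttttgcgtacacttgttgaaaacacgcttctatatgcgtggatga
cdc-48.2: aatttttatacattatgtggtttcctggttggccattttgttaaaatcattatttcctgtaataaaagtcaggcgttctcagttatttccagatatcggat
ufd-3: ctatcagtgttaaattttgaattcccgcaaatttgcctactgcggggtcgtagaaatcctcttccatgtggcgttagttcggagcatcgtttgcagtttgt
ubxn-2: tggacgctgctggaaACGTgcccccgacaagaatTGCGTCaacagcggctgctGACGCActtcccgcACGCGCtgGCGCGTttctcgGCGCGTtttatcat
ubxn-3: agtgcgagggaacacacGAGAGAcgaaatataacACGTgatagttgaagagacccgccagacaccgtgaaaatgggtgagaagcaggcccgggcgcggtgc
F48A11.4: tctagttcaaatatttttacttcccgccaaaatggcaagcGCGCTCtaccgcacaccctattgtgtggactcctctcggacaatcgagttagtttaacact

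GMEB-1 regions lay upstream of both CDC-48 genes and of 4 cofactor genes: ufd-3 and all 3 UBX genes in the set. A region was counted for a gene when its summit in the reproducible list, which the authors made by irreproducible discovery rate (IDR), lay in the gene or within 2 kb of it. By that rule 7 of 10 genes had a summit, against 28.2% of all protein-coding genes. A narrower rule took the promoter as 1000 bp upstream to 200 bp downstream of any annotated start, and 6 of 10 genes had a summit there, against 16.4% of all protein-coding genes. Of the 9 summits found, 6 were in promoters, all upstream of the start, and all 9 were in intergenic sequence. The other 3 lay downstream of cdc-48.1, npl-4.1 and ubxn-3. The shares of all IDR summits in such positions were not counted, so these positions cannot be read as a trait of the family. Because the genes were picked with these summits known, the counts are not independent evidence about the family.

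**Figure D1:**
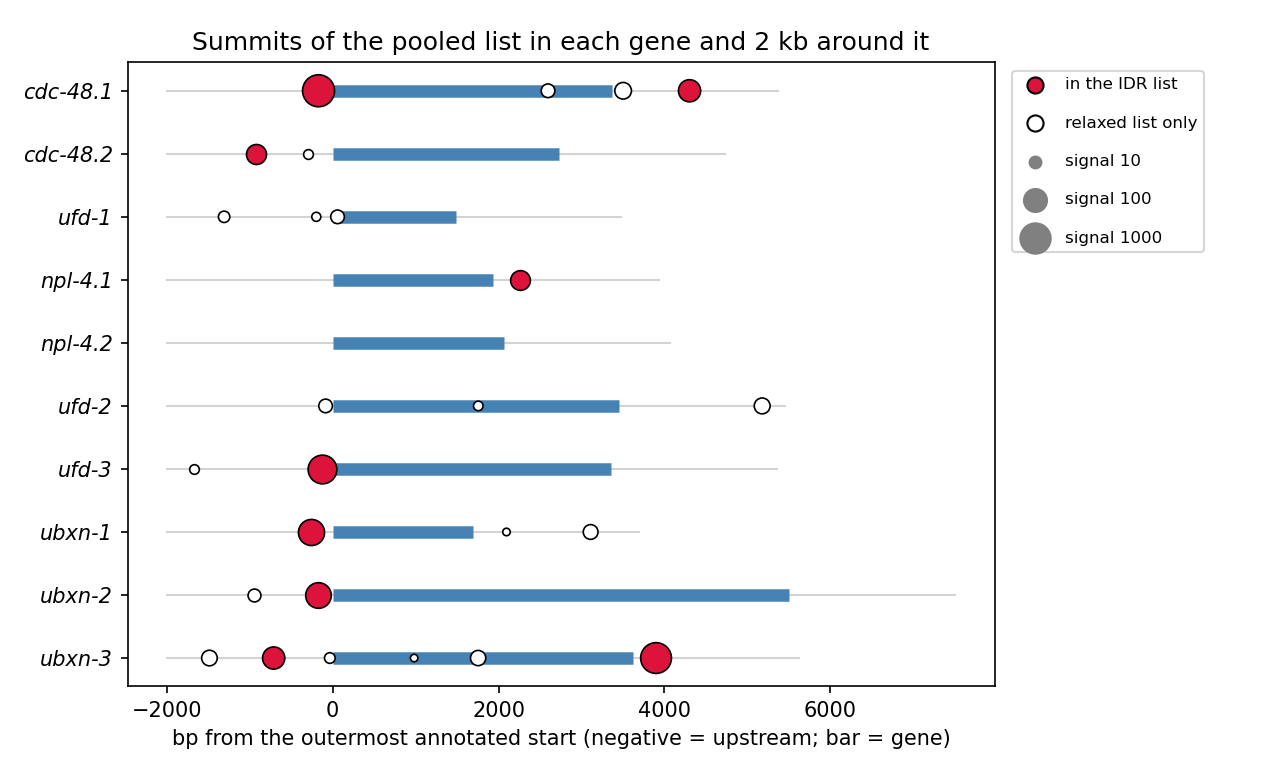
Summits of the pooled list at each of the 10 genes and 2 kb around it, by bp from the outermost annotated start (x axis); the blue bar is the gene, red points are in the IDR list, white points are in the relaxed list only, and point size grows with the log of the signal. Large red points stand just upstream of cdc-48.1, ufd-3, ubxn-1 and ubxn-2, while npl-4.2 has no summit.

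The replicates' lists show which of these summits were strong in both. Each region carries a signal, a value from the authors' caller whose scale differs between lists, with highest values of 191.1 in replicate 1 and 1996 in replicate 2. Signals were therefore not averaged, and ranks were used across lists, with rank 1 as the strongest. The IDR list holds 3909 regions, and the relaxed lists, which take in background on purpose, hold 28693 regions in replicate 1 and 30000 in replicate 2. The lists give no read numbers, which leaves the depth unknown. All 6 promoter summits of the family fell inside a region of each replicate, as did 77.4% and 99.3% of all IDR summits in replicates 1 and 2.

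The ATPase gene cdc-48.1 (II 10560036 to 10563407, minus strand) had the second strongest summit of the IDR list, 171 bp upstream of its start, in a region of 367 bp from 10563395 to 10563761 that reaches over the start. Its signal was 1845 in the IDR list, 72.5 in replicate 1 (rank 14) and 1776 in replicate 2 (rank 2). The replicates placed the summit 14 and 11 bp from the IDR summit, against medians over all IDR summits of 25 bp in replicate 1 and 2 bp in replicate 2. No other protein-coding gene had this summit in its promoter. Among the 3267 genes with a promoter summit, cdc-48.1 stood second.

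The gene also had a weaker summit on its other side. It lay at II 10559103, 933 bp downstream of the gene end, in a region of only 86 bp, with a signal of 80.2 and rank 1637 in the IDR list. This summit ranked higher in replicate 1 (449, signal 19.9) than in replicate 2 (1983, signal 60.5), the reverse of the promoter summit. It lay in the promoter of no protein-coding gene, and the next protein-coding gene on that side, mnk-1, lies 4991 bp from cdc-48.1. Inside the gene, a relaxed region of replicate 2 (rank 8723) had its summit in the small nucleolar RNA gene C06A1.8, which lies within cdc-48.1, and replicate 1 had none in it.

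The paralogue cdc-48.2 (II 8138496 to 8141230, plus strand) had 1 summit, far weaker and farther from its start. It lay at 8137570, 926 bp upstream, with a signal of 46.7 and rank 3143 in the IDR list, where 80.4% of regions ranked above it. Replicate 1 gave it a signal of 6.53 (rank 4104) and replicate 2 a signal of 37.4 (rank 3654). It was thus low within the IDR list, and in the longer relaxed lists of 28693 and 30000 regions it stood well above the weakest. Both replicates placed the summit within 13 bp of the IDR summit. The same summit is 652 bp upstream of ctns-1, which encodes the lysosomal cystine transporter cystinosin and runs the other way. Being nearer to the start of ctns-1, it was not assigned to cdc-48.2 when each summit was given to the nearest start only.

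Set side by side, the summit of cdc-48.1 had 39.5 times the signal of that of cdc-48.2 in the IDR list. The ratio was 11.1 in replicate 1 and 47.5 in replicate 2, so the direction was the same in both. The signal scale differs between the lists, so the sizes of these ratios cannot be compared. In ranks, cdc-48.1 stood 4090 places above cdc-48.2 in replicate 1 and 3652 places above it in replicate 2. With 2 replicates in 1 group, no test of this difference was made. Closer to the start of cdc-48.2 both replicates held only faint relaxed regions. In replicate 1 a region 482 bp upstream had rank 26210, and in replicate 2 a region 295 bp upstream had rank 18646.

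**Figure D2:**
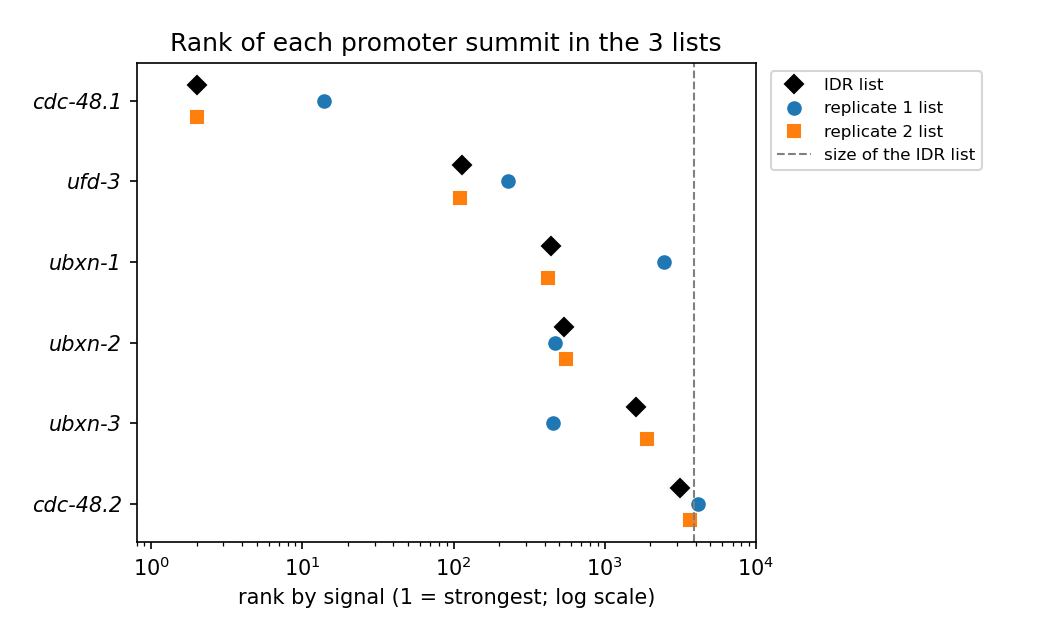
Rank by signal (x axis, log scale, 1 is strongest) of the promoter summit of each gene in the IDR list and in the list of each replicate; the dashed line is the number of regions in the IDR list. cdc-48.1 stands at ranks 2, 14 and 2, whereas cdc-48.2 stands at 3143, 4104 and 3654.

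The genes whose strongest promoter summit was most like that of cdc-48.1 were found by summing the absolute differences of log10 rank over the IDR list and the 2 replicate lists. The first was the ribosomal protein gene rpl-3, at a summed difference of 0.90, with ranks 7 and 1 in replicates 1 and 2. Next were sec-61.G, which encodes the gamma subunit of the protein channel into the endoplasmic reticulum, and its neighbour F32D8.13, which share a summit and stood at 1.06 with ranks 71 and 3. The ribosomal protein gene rpl-35 followed at 1.07 (ranks 41 and 4), then eelo-2 at 1.30 (ranks 31 and 6). The measure rests on 2 samples, and the IDR list is itself made from them.

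The substrate-recruiting heterodimer is encoded by ufd-1 and the npl-4 genes, and none of these 3 had a promoter summit in the IDR list. For ufd-1 (IV 12329408 to 12330890, minus strand) the strongest region of the pooled list had a signal of 13.2 and rank 12756, with its summit in a coding exon, 57 bp upstream of the nearer of 2 starts. Replicate 2 had a region there at rank 12215, and the only region of replicate 1 near the gene was at rank 26023. The gene begins 85 bp after the end of F19B6.1 on the same strand, a spacing seen in worm operons, where 1 promoter can serve several genes. An IDR summit lay in the promoter of F19B6.1, 4036 bp from the nearest start of ufd-1, with a signal of 90.9 and rank 1416.

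The 2 npl-4 genes are near copies on chromosome II, npl-4.2 at 5622889 to 5624959 and npl-4.1 at 5631351 to 5633284, both on the plus strand. Their translations were 99.1% identical over 529 residues and their coding DNA 99.5%. No list held a region within 2 kb of npl-4.2, and the only replicate region near npl-4.1 was one of replicate 2 at rank 19765, 1997 bp upstream. At npl-4.1 the IDR list held a summit at 5633608, 324 bp downstream of the gene, with a signal of 43.5 and rank 3436. That summit lay in no region of replicate 1 or of replicate 2, which was so for 4 of the 3909 IDR summits.

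Repeated sequence was measured at these genes because reads that are identical between copies cannot be told apart. In the promoters of npl-4.1 and npl-4.2, 2.65% of the 31-base words occurred once in the nuclear genome, and in the genes themselves 13.3% in npl-4.1 and 15.3% in npl-4.2. In the promoters of the other 8 genes the share was at least 89.7%, the value of cdc-48.1. It was 98.04% in the IDR region downstream of npl-4.1 and 100% in the regions at the other 8 IDR summits of the family. The promoter share was taken in the window at the outermost start of each gene, while promoter summits were counted at any annotated start. Over all protein-coding genes, 257 had a promoter with under 10% of such words, and no relaxed list held a promoter summit for any of them. Among the 17065 genes with 90% or more, 38.3% had no relaxed promoter summit and 17.7% had an IDR promoter summit. In the class from 50% to under 90%, which holds cdc-48.1, these shares were 54.3% and 9.96% of 2249 genes. The missing regions at the npl-4 promoters cannot be read as missing GMEB-1, and their cause was not tested. All 6 promoter summits of the family fell on the 8 genes with mostly unrepeated promoters, but the genes were picked with these summits known. The sources used here do not say whether only uniquely placed reads were kept, and families of copied genes can differ from other genes in further ways, whose part was not tested.

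**Figure D3:**
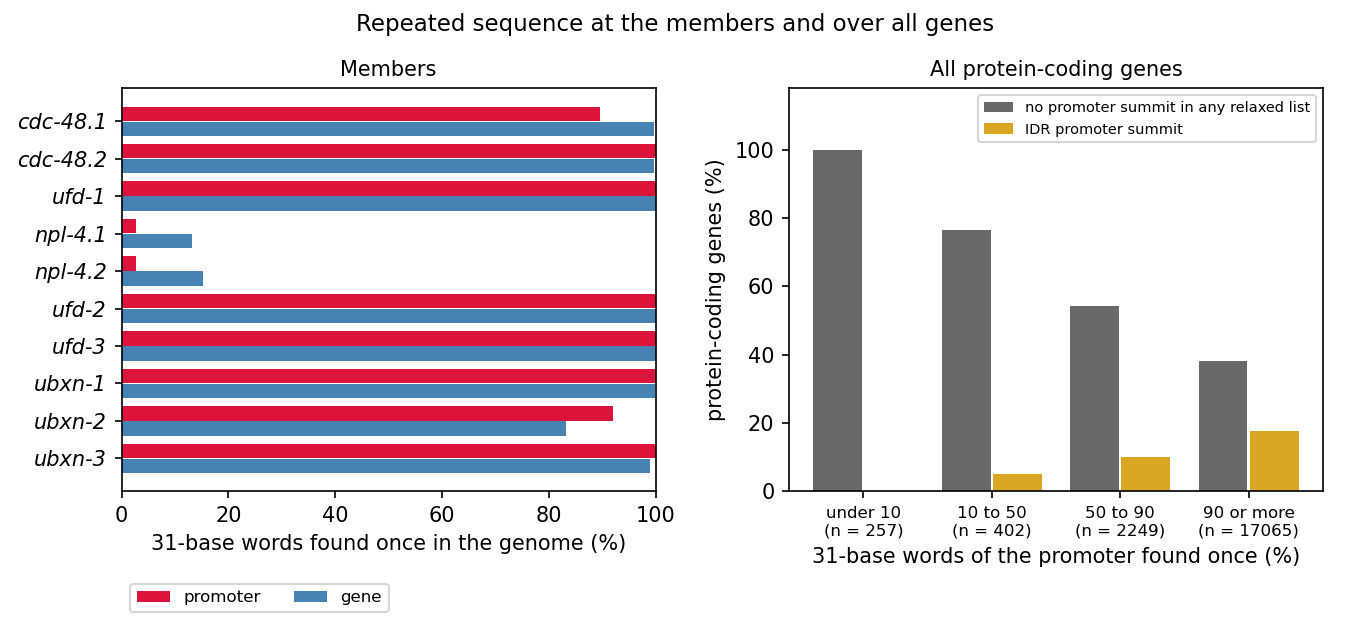
Left, the share of 31-base words that occur once in the nuclear genome, in the promoter (red) and in the gene (blue) of each of the 10 genes. Right, for all protein-coding genes by that share in the promoter, the percent with no promoter summit in any relaxed list (grey) and the percent with an IDR promoter summit (yellow). Both npl-4 promoters stand at 2.65%, in the class where 100% of 257 genes had no relaxed promoter summit. The promoter share was taken at the outermost start, and summits were counted at any annotated start.

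Of the other UFD cofactors, ufd-3 had a strong promoter summit and ufd-2 had none. At ufd-3 (II 9940753 to 9944107, plus strand) the summit at 9940629 was 124 bp upstream of the nearest start, the closest of the 6. Its signal was 572 and its rank 113 in the IDR list, with 27.0 (rank 228) in replicate 1 and 545 (rank 111) in replicate 2. Both replicates thus ranked it high, and it lay in no other promoter. The summit of replicate 1 was 36 bp away from the IDR summit and that of replicate 2 was on the same base.

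The E4 ubiquitin ligase gene ufd-2 (II 8062741 to 8066193, plus strand) had no IDR summit within 2 kb, and the nearest was 12737 bp from its starts. In replicate 1 it had regions 380 and 139 bp upstream at ranks 5618 and 5834, and in replicate 2 a region 91 bp upstream at rank 17480. Its promoter held 100% once-only words, unlike those of the npl-4 genes. In the pooled list the region 86 bp upstream had a signal of 13.1, under the lowest IDR signal of 38.7. The strongest relaxed pooled region at any of the 10 genes outside the IDR list, 22.5, was downstream of cdc-48.1, and the weakest inside it was the 43.5 at npl-4.1.

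The 3 UBX-domain genes all had promoter summits, with ranks that were closest between the replicates at ubxn-2. At ubxn-2 (IV 2720313 to 2725819, minus strand), which encodes the worm p47, the summit lay 177 bp upstream with a signal of 209 and rank 536. Its rank was 468 in replicate 1 (signal 19.7) and 557 in replicate 2 (signal 187). The replicates' summits were 6 and 2 bp from it.

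At ubxn-1 (I 2434002 to 2435691, plus strand), related to mammalian UBXN1, the summit lay 262 bp upstream with a signal of 247 and rank 438. Replicate 2 gave it rank 421 (signal 239.8) and replicate 1 only rank 2446 (signal 8.42). The summit is 125 bp upstream of tipn-1, the worm gene for the replication fork protein TIPIN, which runs the other way and whose start is nearer. Given to the nearest start only, it was not counted for ubxn-1.

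At ubxn-3 (II 217049 to 220667, minus strand), the worm relative of FAF1, the promoter summit at 221379 was 712 bp upstream, with a signal of 81.2 and rank 1620. This one ranked higher in replicate 1 (456, signal 19.9) than in replicate 2 (1902, signal 62.7). A far stronger summit lay behind the gene, at 216767, 282 bp past its end, with a signal of 1174 and rank 14 in the IDR list, rank 186 in replicate 1 and rank 14 in replicate 2. It stood 146 bp upstream of F48A11.4, the next gene on the same strand, and 1357 bp from the nearest start of ubxn-3. By position it therefore belongs to the promoter of F48A11.4, and it was counted for ubxn-3 only by the 2 kb rule.

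The family as a whole was spread over nearly the full range of the IDR list. Promoter signals ran from 46.7 to 1845 with a median of 228 over the 6 summits, beside a median of 90.9 over the strongest promoter summit of all 3267 genes that had one. Distances to the nearest start ran from 124 to 926 bp, with a median of 219.5 bp beside 220 bp over all those genes. In the order of their strongest promoter summit the 6 genes stood at places 2, 149, 583, 712, 1788 and 2794. The first 4, cdc-48.1, ufd-3, ubxn-1 and ubxn-2, had summits within 262 bp of a start, while ubxn-3 and cdc-48.2 had theirs 712 and 926 bp away. In each replicate's own 3909 strongest regions, 5 of 10 genes had a promoter summit in replicate 1, against 11.8% of all protein-coding genes, and 6 of 10 in replicate 2, against 16.5%. The gene lost in replicate 1 was cdc-48.2.

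The 7 words were taken from earlier results of these data, so their shares in IDR windows are not independent evidence of a motif. None of the words searched was in all 6 promoter windows. Of the 7 words searched, ACGT, the core that mammalian GMEB proteins bind, was in 3 of 6 promoter windows (cdc-48.1, ubxn-2 and ubxn-3), beside 26.1% of all 3909 IDR windows and 20.8% of 101-bp windows centred 150 bp upstream of all 19973 protein-coding genes. ACGCGC was in 2 windows, those of ubxn-1 and ubxn-2, beside 12.3% of IDR windows and 2.54% of promoter windows. The ubxn-2 window printed above held it 3 times, along with GACGCA once on each strand, and had the highest GC content of the 6, 61.4%.

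GACGCA was in no other of the 6 windows, beside 13.7% of IDR windows and 3.43% of promoter windows. GAGAGA was in the ubxn-3 window alone (beside 22.3% of IDR windows and 8.42% of promoter windows). GAGCGC and AGACGC were in none of the 6, beside 12.4% and 12.6% of IDR windows and 2.00% and 2.90% of promoter windows, though GAGCGC was in the F48A11.4 window 10 bp from the summit. TACGTA was in none, beside 0.793% of IDR windows and 1.13% of promoter windows. AGACGC and GACGCA overlap by 5 bases, so they are not separate words. The cdc-48.1 window, at the second strongest summit, held a single ACGT 15 bp upstream of the summit and none of the other 6 words. The windows of ufd-3 and cdc-48.2 held none of the 7, so 4 of 6 windows held at least 1 word, beside 62.3% of all IDR windows. GC content was 42.6% at cdc-48.1 and 31.7% at cdc-48.2, beside medians of 43.6% over IDR windows and 33.7% over promoter windows. A match of letters does not show a site, and its absence from these windows says only that the letters are not there.

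Further lists were described for context, both written with earlier results of these data known. The first held 22 genes of ubiquitin handling around CDC-48 and of endoplasmic reticulum-associated degradation, of which 19 matched the annotation. Of these 7 had an IDR promoter summit, or 36.8%, against 16.4% of all protein-coding genes, with a median signal of 110.3. The strongest were at ubc-7 (signal 641, rank 89), a ubiquitin-conjugating enzyme of that pathway, ubql-1 (263, rank 407), the worm ubiquilin, rnf-121 (132, rank 909) and ubc-6 (110.3, rank 1137), another conjugating enzyme. In replicates 1 and 2 these summits ranked 1507 and 81 at ubc-7 and 100 and 445 at ubql-1. They ranked 3050 and 883 at rnf-121, and 20599 and 1044 at ubc-6. The other 12 genes of the list had no IDR summit in the promoter. Among them were the ubiquitin ligase genes sel-11 and hrdl-1, the adaptor sel-1 and the remaining UBX genes ubxn-4, ubxn-5 and ubxn-6. Of the 7 IDR promoter summits, 6 also lay in the promoter of another gene. How often this held over all IDR promoter summits was not counted, so it cannot be read as a trait of these genes. With the nearest start only, 3 of 19 genes were left, beside 12.1% of all genes.

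The second list held 22 other AAA ATPase genes, including the 6 base ATPases of the proteasome, and 14 had an IDR promoter summit, or 63.6%, against 16.4% of all protein-coding genes, with a median signal of 172. They were led by the microtubule-severing spastin gene spas-1 (signal 715, rank 65), the ESCRT-disassembling vps-4 (649.7, rank 83), the mitochondrial protease gene spg-7 (383, rank 245) and the fidgetin-like figl-1 (296, rank 350). None reached the signal of cdc-48.1, and the closest relative in name, cdc-48.3, had no IDR summit within 2 kb. In replicate 1's own strongest regions 7 of the 22 had a promoter summit, beside 11.8% of all protein-coding genes. In replicate 2's it was 14 of the 22, beside 16.5%. The count was lower in replicate 1 over all genes as well, but by a smaller factor than in this list. spg-7 and figl-1 ranked 26087 and 26653 in replicate 1, whereas vps-4 ranked 37. The summits of spg-7 and figl-1 also lay in promoters of other genes, and that of figl-1 was 994 bp from its start. With the nearest start only 12 of the 22 were left, without figl-1, beside 12.1% of all genes.

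**Figure D4:**
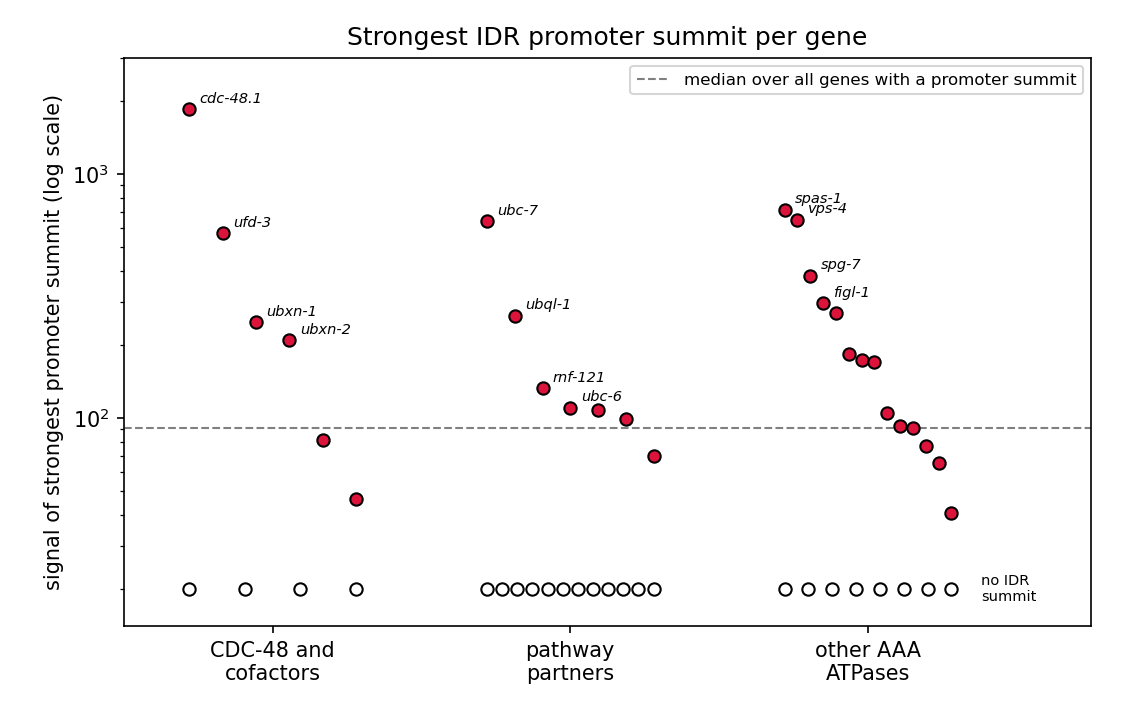
Signal (y axis, log scale) of the strongest IDR promoter summit of each gene in the family and in the lists of pathway partners and of other AAA ATPases; open circles at the bottom are genes with no IDR promoter summit, and the dashed line is the median of 90.9 over all genes with one. cdc-48.1 at 1845 stands above every gene of the other lists, the next being spas-1 at 715.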

How the data were processed

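The ce11 region lists were used, in narrowPeak layout. The authors called, per the readme files deposited beside them, a relaxed list of peaks and background from each replicate's alignment and a control, a pooled list from both, and derived the IDR list from these. The sources used here name no caller, aligner, IDR threshold or read length. The signal column holds the value that the authors' caller gave each region. The deposited −log10 q value was 4.09 throughout the IDR list and could not order it, and signal was used for ranks. Lists in the older build were not used.

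Genes came from Ensembl release 115 (WBcel235), sequence from RefSeq WBcel235. All regions end within their chromosomes. Coordinates are 1-based. Many worm transcripts are trans-spliced, so annotated starts can lie downstream of where transcription begins. The family and the lists were chosen with earlier results of these data known. Named genes are the 10 members, their neighbours, genes sharing a member's summit, the 4 strongest of each further list and the 5 most like cdc-48.1; sel-1, sel-11, hrdl-1, ubxn-4, ubxn-5, ubxn-6 and cdc-48.3 were named after their values were seen. The count of repeated words was also added after the data were seen. Protein translations were aligned globally (BLOSUM62). Alternatives were other flanks, promoters and windows, the nearest start only, the 1954 strongest IDR regions, summits within 100 bp and each replicate's own 3909 strongest regions. No hypothesis test was made, and values over 2 replicates have no error estimate. Counting was tested on simulated summits. Python 3.11.15, numpy 2.4.6, pandas 2.3.3 and Biopython 1.88 were used.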

Additional observations from a re-analysis of the deposited data

How the results depend on the processing

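No paired analysis was possible because the labels give 1 group. Of the 10 genes, 7 had a summit in the gene or 2 kb around it (28.2% of all genes did), 7 with 1000 bp (22.1%), 6 with 500 bp (18.3%) and 0 with no flank (4.59%). Without replicate 1 the count was 6 (28.3% of all genes), and without replicate 2 it was 5 (23.7%). The 6 genes with a promoter summit were 6 in the wider promoter, 4 in the narrower one (500 and 100 bp, without cdc-48.2 and ubxn-3), 4 with the nearest start only (without cdc-48.2 and ubxn-1), 5 among the 1954 strongest regions, and 6 and 5 without replicate 1 or 2. Shares of all genes were 16.4% in the main promoter, 20.8% in the wider, 13.3% in the narrower and 12.1% with the nearest start only. They were 10.2% among the 1954 strongest regions, and 16.5% and 11.8% without replicate 1 or 2. In those terms 7 of 19 pathway partners had a promoter summit, 4 in the narrower promoter and 3 with the nearest start only, both nearer to the shares of all genes. The count was 9 in the wider promoter, 7 among the 1954 strongest regions, and 7 and 6 without replicate 1 or 2. Of 22 other AAA ATPases 14 had a promoter summit, 17 in the wider promoter, 13 in the narrower one and 12 with the nearest start only. Their count was 12 among the 1954 strongest regions, and 14 and 7 without replicate 1 or 2. The ratio of cdc-48.1 to cdc-48.2 was 39.5 in the IDR list, and 47.5 and 11.1 without replicate 1 or 2. All 12 ranks in the replicates were the same when summits had to lie within 100 bp. Windows with at least 1 of the 7 words numbered 4 of 6 (62.3% of all IDR windows had one), and 3 (42.2%) and 4 (79.3%) with 25 and 100 bp to either side. Depth is unknown, so a gene without a region cannot be told from one below detection.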
